A study of Mus musculus with 12 samples.

Results

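The EGF receptor (ErbB) family and the ligands of its first member were examined in hepatocytes and biliary cells of injured mouse liver. The 10 genes are Egfr, Erbb2, Erbb3 and Erbb4, which encode the receptors, and Egf, Areg, Ereg, Hbegf, Tgfa and Btc, which encode ligands. They were chosen by gene symbol and are 10 of the 53599 genes in the count table. All 10 were found, 9 had enough counts to be tested, and Ereg did not.

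ErbB receptors are tyrosine kinases that sit in the cell membrane as single chains and signal once a ligand has brought a pair of them together. ErbB2 binds no known ligand and works as the partner of the others. ErbB3 has very weak kinase activity and signals through its partners, and ErbB4 is bound by neuregulins as well as by some EGF-like ligands. The ligands are made as membrane proteins and released by metalloproteases, and the receptors drive the RAS to MAP kinase and the PI3 kinase to AKT pathways. In liver, EGFR is abundant on hepatocytes and takes part in regeneration after tissue loss.

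All libraries came from liver cells of mice whose labelled genotype is WT and which had received AAV8-TBG-Cre, a virus that drives Cre recombinase from a hepatocyte promoter, so that EGFP marks hepatocytes and cells descended from them. From the following week the mice ate a diet with 0.1% DDC, a compound that injures bile ducts, for 8 weeks, after which cells were sorted. The early group was EGFP+ Cd24- Epcam-, the intermediate group EGFP+ Cd24+ Epcam-, the full group EGFP+ Cd24+ Epcam+, and the BEC group (resident biliary epithelial cells) EGFP- Epcam+, with 3 libraries in each. The study asks how transcription differs between stages of hepatocyte conversion toward biliary cells. No group of uninjured mice is among the libraries, since every group had the virus and the diet. The labels do not say whether replicates came from separate mice, nor give the reporter allele, age or sex, so p-values measure only the spread between these libraries, which may be technical.

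Total counts ran from 15112893 to 19731887 per library. CPM values are counts scaled to library size. Summed CPM of 10 hepatocyte markers were 101831 to 109331 in early libraries and 2378 to 3058 in BEC libraries, and those of 10 biliary markers were 1000 to 1941 and 14692 to 17856. The hepatocyte sums of the 4 groups did not overlap, with 16927 to 23032 in intermediate and 4055 to 5495 in full. The biliary sums overlapped between intermediate (9397 to 12275) and full (11913 to 15123), and between full and BEC. Spp1 made up most of the biliary sum (1237, 9866, 11316 and 12144 CPM from early to BEC). Epcam, on the same list, was itself a sort marker. Lists of other cell types were measured as well. The 4 mesothelial markers summed to 225 to 249 CPM in BEC, 29.4 to 44.8 in full and at most 4.37 in the other groups. Of these, Msln made up most (198 ± 13.2 CPM in BEC, SD, n = 3). Gpm6a went the same way, with 0.304, 1.04, 12.1 and 41.5 CPM from early to BEC, and the defining markers Upk3b and Wt1 stayed at or below 1.54 and 2.01 CPM in every library. A list of 11 macrophage markers summed to 134 to 166 CPM in BEC against 26.3 to 28.9 in early. Csf1r made up most of it (127 ± 6.69 CPM in BEC), while Adgre1, which defines macrophages, and Ptprc, a marker of all leukocytes, stayed at or below 1.05 and 1.19 CPM in every library. Other macrophage markers reached more in their highest BEC library, such as Cd5l with 10.1, Clec4f with 7.68, Lyz2 with 7.63 and C1qa with 4.57 CPM, and the mean of each of these 4 was higher in BEC than in early. Cd68, on the same list, went the other way, from 14.0 ± 2.08 CPM in early to 3.46 ± 1.09 in BEC. Endothelial markers summed to 4.62 to 26.8 CPM, stellate cell and fibroblast markers to 49.4 to 329 CPM, both highest in an early library, and B, T and neutrophil lists to at most 1.28 CPM. Erythroid markers summed to 18.7 to 33.3 CPM in early and at most 3.17 in the other groups, carried by Alas2 (24.3 ± 7.62 CPM in early), while the 4 globin genes of the list stayed at or below 0.237 CPM. The part of these lists in the levels of the members was not tested. In sorted bulk samples, fewer cells of a type and less RNA per cell cannot be told apart.

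The upstream sequences of 4 members are shown because their transcripts differed between the groups in 4 distinct ways: Erbb2 was higher at each step from early to BEC, Erbb4 stayed low until the full group, Areg was highest in early, and Btc, the chromosomal neighbour of Areg, changed least of the 4. Each is the 250 bases before the gene's start, 5′ to 3′ on the gene's strand, from RefSeq on the mouse build GRCm38.p6. A RefSeq promoter entry was matched for 7 of the 10 members, all but Erbb3, Ereg and Hbegf. Capitals mark matches to 5 motifs, searched on both strands, which do not overlap one another in these windows. The letters CATTCC are those bound by TEAD factors, the partners of YAP. The letters TGANTCA are those of AP-1 factors such as FOS and JUN. The cyclic AMP response element (CRE) is TGACGTCA. The GC box, bound by SP1, is GGGCGG. The TATA box, which places the start of transcription, is TATAAA.
Erbb2, chr11:98412234-98412483, plus strand: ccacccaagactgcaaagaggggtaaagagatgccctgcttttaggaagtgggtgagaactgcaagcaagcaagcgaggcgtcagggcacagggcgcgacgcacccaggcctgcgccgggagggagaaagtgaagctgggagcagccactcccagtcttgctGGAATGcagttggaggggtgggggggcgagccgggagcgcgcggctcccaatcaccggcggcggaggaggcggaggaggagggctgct
Erbb4, chr1:69108060-69108309, minus strand: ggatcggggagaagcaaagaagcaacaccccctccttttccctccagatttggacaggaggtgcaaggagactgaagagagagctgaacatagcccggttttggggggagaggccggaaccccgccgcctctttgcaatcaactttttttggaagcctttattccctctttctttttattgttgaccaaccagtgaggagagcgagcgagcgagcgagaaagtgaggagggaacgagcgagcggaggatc
Areg, chr5:91139349-91139598, plus strand: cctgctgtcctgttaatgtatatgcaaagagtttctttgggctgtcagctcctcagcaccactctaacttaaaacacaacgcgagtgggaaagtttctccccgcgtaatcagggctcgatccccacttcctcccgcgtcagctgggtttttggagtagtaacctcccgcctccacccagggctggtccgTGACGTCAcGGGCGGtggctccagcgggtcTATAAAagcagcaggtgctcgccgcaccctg
Btc, chr5:91402995-91403244, minus strand: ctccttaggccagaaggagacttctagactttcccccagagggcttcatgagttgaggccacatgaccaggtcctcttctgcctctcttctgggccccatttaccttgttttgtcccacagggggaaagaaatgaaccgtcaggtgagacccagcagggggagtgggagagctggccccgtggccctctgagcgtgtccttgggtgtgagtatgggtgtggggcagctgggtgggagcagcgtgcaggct
The Areg window held a CRE 61 bases, a GC box 52 bases and a TATA box 31 bases before the start. The Erbb2 window held 1 TEAD match, 88 bases before the start, read on the opposite strand as GGAATG. No searched letters occurred in the Erbb4 or Btc windows. The GC content was 66.0% for Erbb2, 54.0% for Erbb4, 57.2% for Areg and 59.6% for Btc, against a median of 52.4% over 32841 mouse promoters of the same length. Of those promoters, 12.6% held the TEAD letters, 1.55% the CRE, 32.7% the GC box, 12.4% the TATA box and 6.75% the AP-1 letters. On chromosome 5, the protein-coding genes run in the order Epgn, Ereg, Areg, Btc, so these 4 EGF-like ligand genes are adjacent.

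Across the 4 groups, 7 of the 9 tested members differed by edgeR's quasi-likelihood F test (adjusted p under 0.05 over all 16210 genes tested), and 75.6% of all tested genes did. Egf and Tgfa were the members not called (adjusted p = 0.245 and 0.208). The share of members called was thus close to that of the transcriptome, and what follows describes which members differed, where and by how much.

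**Figure D1:**
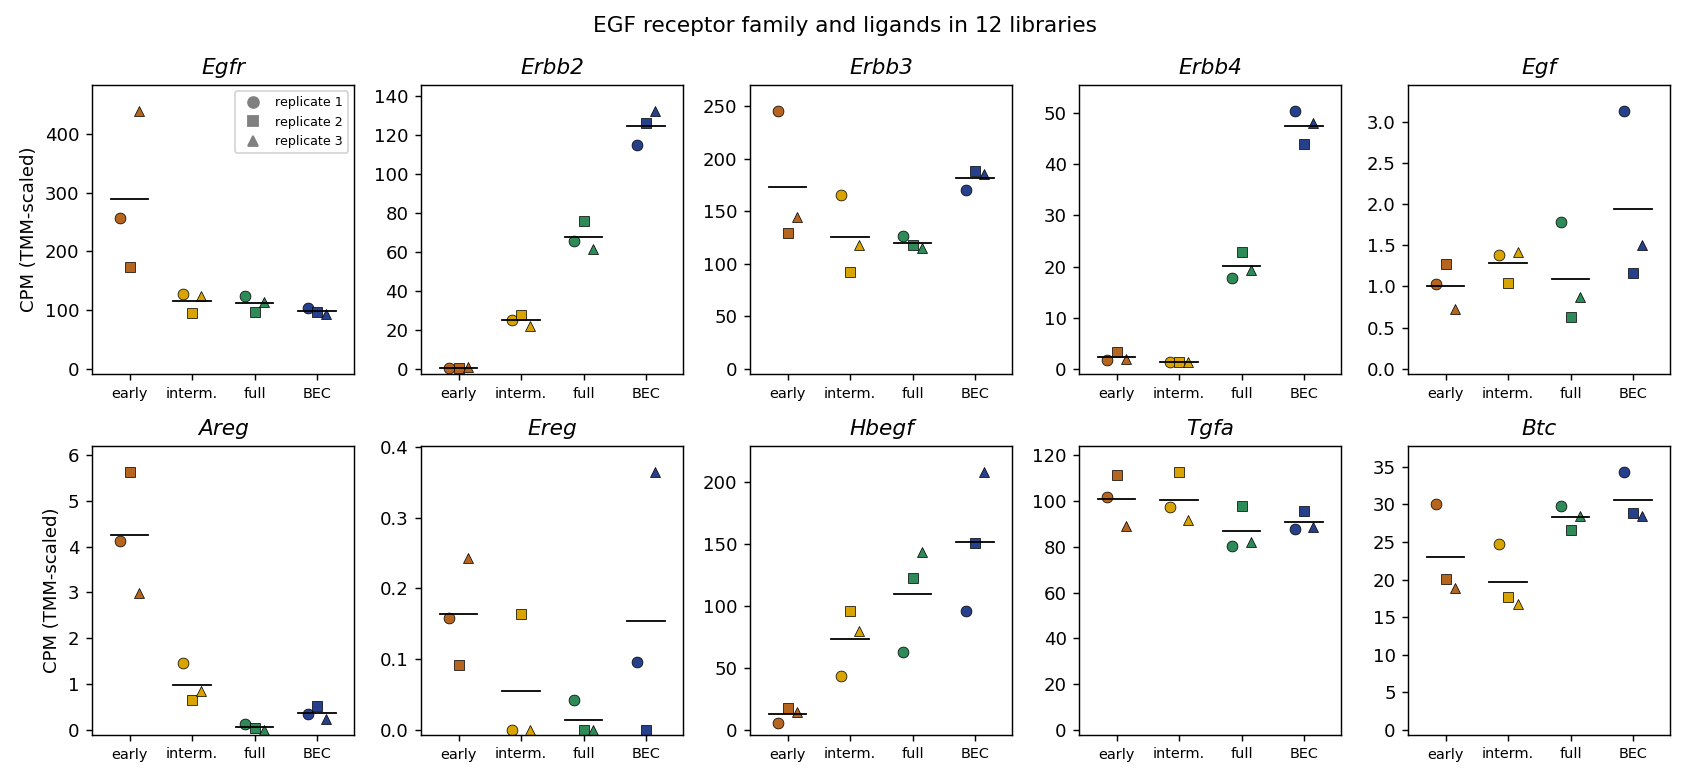
CPM (vertical axis, linear, a different range in each panel) of the 10 members in the 12 libraries, by group; symbols are replicates 1 to 3 and bars are group means. Erbb2 and Hbegf means are higher in each group from early to BEC, Egfr and Areg are highest in early, and Tgfa lies between 80.6 and 113 CPM in every library.

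Erbb2 was the member with the largest difference between groups. It had 0.316, 0.637 and 0.890 CPM in early replicates 1 to 3, which are 4, 7 and 11 counts, and 25.1, 27.8 and 22.2 CPM in intermediate. It reached 65.7, 75.9 and 61.5 CPM in full and 115, 126 and 132 CPM in BEC. No library of one group overlapped the range of another. The log2 fold change was 5.34 (SE 0.22) from early to intermediate, which is 40.5-fold (edgeR adjusted p = 7.68e-10). From intermediate to full it was 1.43 (SE 0.13, adjusted p = 1.49e-06), and from full to BEC 0.88 (SE 0.12, adjusted p = 0.00016). BEC exceeded early 201-fold (log2 7.65), and with total-count scaling the log2 change was 8.51. Every alternative scaling, filter and left-out library kept all 6 pairwise calls of Erbb2. In early libraries Erbb2 sat a few counts above the floor of 3 counts, so the first fold rests on few counts.

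Erbb4, which encodes a receptor of neuregulins, was low in both Epcam-negative groups. Early libraries had 1.82, 3.36 and 1.86 CPM and intermediate libraries 1.32, 1.37 and 1.30 CPM. The full libraries had 17.8, 22.9 and 19.3 CPM and the BEC libraries 50.4, 43.9 and 48.0 CPM, well above all Epcam-negative libraries. Erbb4 rose 15-fold from intermediate to full (log2 3.90, SE 0.20, edgeR adjusted p = 2.38e-08) and 2.37-fold from full to BEC (log2 1.25, SE 0.15, adjusted p = 4.54e-05). Between early and intermediate it fell by 0.80 on the log2 scale (SE 0.25, adjusted p = 0.0148), but this call rested on early replicate 2: without it the change was −0.47 (adjusted p = 0.147). It was also lost with total-count scaling (−0.14, adjusted p = 0.645) and when only the 6 libraries compared were fitted (−0.81, adjusted p = 0.0961). The group in which a receptor first exceeded its early level thus differed: Erbb2 was already 40.5-fold above early in intermediate, where Erbb4 was at or below its early level.

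Egfr, which encodes the receptor of all 6 member ligands, was highest in early. Early libraries had 256, 173 and 439 CPM, intermediate 127, 94.5 and 124, full 124, 96.9 and 114, and BEC 104, 96.6 and 93.4. Every early library exceeded every library of the other groups, which overlapped one another. Egfr fell by 1.33 on the log2 scale from early to intermediate (SE 0.25, edgeR adjusted p = 0.000458), to a level 2.52-fold lower. Leaving out 1 library moved this value between −1.60 and −0.90, with the call kept each time. Between intermediate and full the change was −0.04 (95% interval −0.57 to 0.49, adjusted p = 0.911), and between full and BEC −0.19 (interval −0.72 to 0.34, adjusted p = 0.672). Changes of up to 0.72 on the log2 scale lie within these intervals. BEC was 1.57 lower than early on the log2 scale (adjusted p = 6.51e-05).

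The scaling of early libraries bears on the size of every change against early, and on the calls of Egfr and of the members with small changes. Trimmed-mean (TMM) factors were 0.652 to 0.672 in early and 1.03 to 1.22 in the other groups. With total counts alone, the median log2 fold change of all tested genes moved from 0.06 to 0.72 for intermediate against early and from 0.14 to 1.0 for full against early. On that scale Egfr was 0.67 lower in intermediate than in early (edgeR adjusted p = 0.0274) and 0.51 lower in full (adjusted p = 0.0704), the latter no longer a call. Relative to the median of all genes, Egfr was below early on both scales.

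Erbb3, whose protein relays the signal of its partners to PI3 kinase, was abundant in all 4 groups, and 3 of the 6 pairs of groups overlapped. It had 246, 129 and 144 CPM in early, 166, 92.4 and 118 in intermediate, 126, 118 and 115 in full, and 170, 188 and 185 in BEC. BEC libraries lay above all full and intermediate libraries, and early replicate 1 was the highest of all 12. Erbb3 was 0.53 lower on the log2 scale in full than in early (SE 0.22, edgeR adjusted p = 0.0457). This did not hold in 8 of 12 fits that left out 1 library: the change was −0.19 (adjusted p = 0.354) without early replicate 1, and −0.50 to −0.57 (adjusted p = 0.0507 to 0.109) without intermediate replicate 3 or any 1 of the 3 full or 3 BEC libraries. The call was also lost when genes needed a mean of at least 50 counts (−0.52, adjusted p = 0.0523), and with total-count scaling the change became 0.34 in the opposite direction (adjusted p = 0.173). Between BEC and full, Erbb3 differed by 0.60 (interval 0.12 to 1.08, adjusted p = 0.0759), and with the replicate number as a block by 0.61 (adjusted p = 0.0158). It was called as well by DESeq2 (0.61, adjusted p = 0.0431), with no filter on low counts (0.57, adjusted p = 0.002) and with only the 6 libraries compared (0.58, adjusted p = 0.000313). BEC against intermediate was 0.53 (edgeR adjusted p = 0.0603) and was called under each of the 7 alternatives other than left-out libraries (0.51 to 0.73, adjusted p = 0.00308 to 0.0483). Between intermediate and early the change was −0.47 (adjusted p = 0.0945), with the block −0.46 (adjusted p = 0.0351), with no filter −0.43 (adjusted p = 0.0149), and with total-count scaling 0.20 in the opposite direction (adjusted p = 0.425). Leaving out 1 library moved it between −0.12 and −0.71, with a call without early replicate 2 (−0.64, adjusted p = 0.0319) or intermediate replicate 1 (−0.71, adjusted p = 0.0155).

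Levels of different receptors were compared per kilobase of exon, with the lengths of merged exons in GENCODE M21. As a share of the summed receptor level, Erbb3 was 53.3% ± 13.6 in early and 57.3% ± 5.29 in intermediate libraries, against 44.8% ± 0.763 in full and 45.3% ± 0.930 in BEC libraries (SD, n = 3 each). Egfr was 46.1% ± 13.6, 28.5% ± 2.89, 22.3% ± 2.66 and 13% ± 1.23 in the same order. Erbb2 went from 0.232% ± 0.121 through 13.8% ± 3.90 and 29.3% ± 2.91 up to 35.9% ± 1.26. Erbb4 made up 0.401% ± 0.287, 0.309% ± 0.0682, 3.66% ± 0.507 and 5.79% ± 0.591. In early libraries the order of Egfr and Erbb3 was not settled: Egfr ranged from 35.6% to 61.5% and Erbb3 from 38.0% to 64.1%. In full, Erbb2 lay above Egfr in every library on the per-length scale (lowest Erbb2 share 27.4%, highest Egfr share 23.9%), and in BEC the difference was larger. The 2 most abundant receptor transcripts per length were therefore Erbb3 and Egfr in early and intermediate, and Erbb3 and Erbb2 in full and BEC. Without division by length Egfr took more, 60.8% of receptor counts in early and 35.0% in full, where it then exceeded Erbb2 (21.2%).

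**Figure D2:**
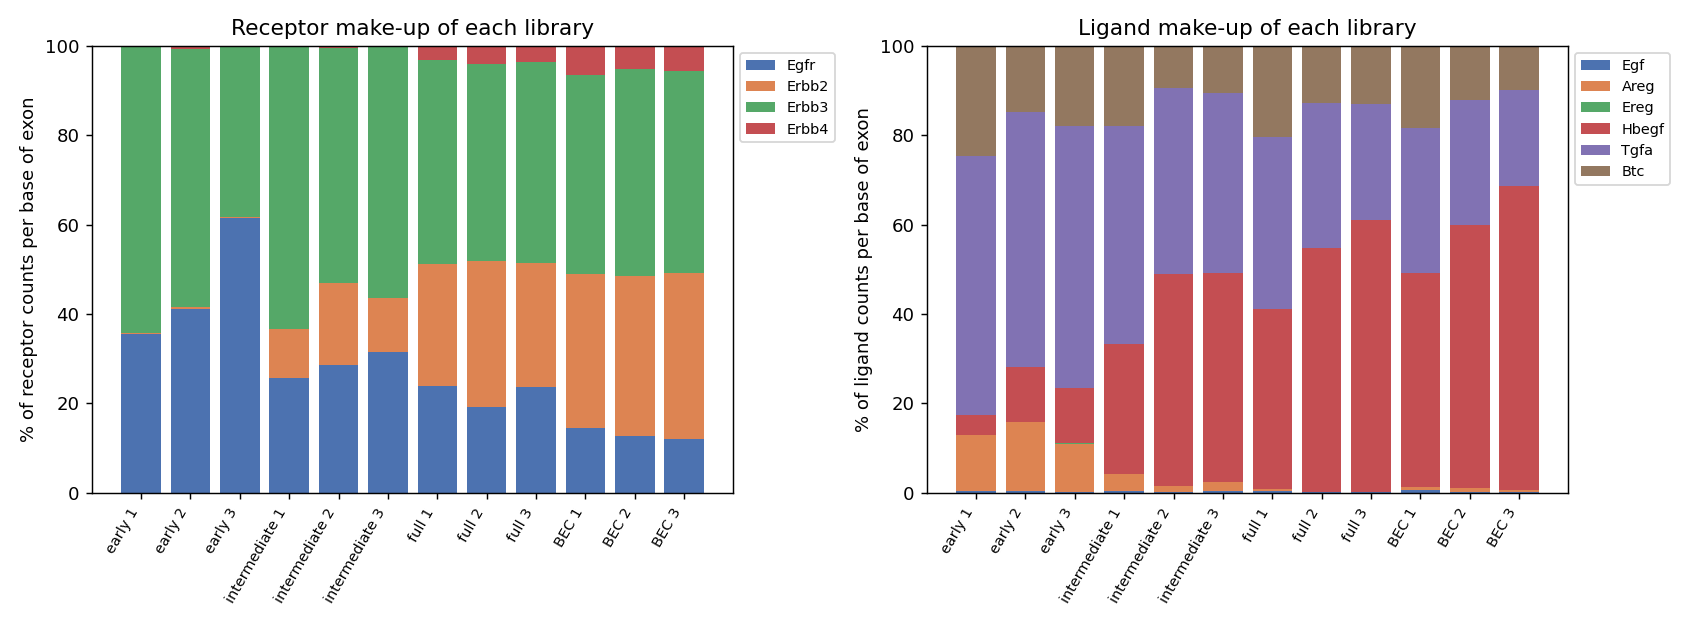
Share of each receptor (left) and each ligand (right) in the summed counts per base of exon of its kind, in percent, one bar per library. Erbb2 (orange, left) and Hbegf (red, right) take larger shares from early to BEC, while Egfr, Areg and Tgfa take smaller ones.

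Hbegf, a heparin-binding ligand of EGFR and ErbB4, was the ligand with the largest rise. Early libraries had 5.77, 17.7 and 14.1 CPM, intermediate 43.1, 96.0 and 79.5, full 63.1, 123 and 143, and BEC 96.0, 151 and 209. Every early library lay below all others, and the 3 remaining groups overlapped. Hbegf was 5.86-fold higher in intermediate than in early (log2 2.55, SE 0.44, edgeR adjusted p = 0.00022) and 12.2-fold higher in BEC than in early (log2 3.61, SE 0.45, adjusted p = 5.58e-06). The later steps were not called: 0.59 from intermediate to full (interval −0.24 to 1.42, adjusted p = 0.248) and 0.47 from full to BEC (interval −0.35 to 1.29, adjusted p = 0.473). With the replicate block the same steps were 0.58 (adjusted p = 0.00351) and 0.49 (adjusted p = 0.0152) and were called, and with no filter on low counts the first of them was 0.60 (adjusted p = 0.0113). BEC against intermediate was 1.06 (adjusted p = 0.0343), a call lost with DESeq2 (1.11, adjusted p = 0.0523) and without intermediate replicate 1 or 3 or BEC replicate 2 or 3 (0.76 to 1.12, adjusted p = 0.0618 to 0.146).

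Replicate 1 was the lowest for Hbegf in each of the 4 groups, and the highest library exceeded it 2.17-fold to 3.07-fold within a group. A list of 15 genes induced by tissue dissociation, such as Fos, Jun and Egr1, followed the same order at its low end. Its summed level was lowest in replicate 1 of each group, at 3832, 4260, 5128 and 4091 CPM from early to BEC, and its highest libraries had 6618, 8774, 8741 and 8029 CPM. Between groups, 3 of its 15 genes were called higher and 1 lower in intermediate against early, where 54.4% of all tested genes were called, and none at the next 2 steps. Against early, 6 were called higher and 1 lower in full (71.2% of all genes called), and 6 and 2 in BEC (73.1%). With total-count scaling, intermediate against early gave 9 higher and 0 lower, where 69.4% of all genes were called. Whether the dissociation genes have a part in the spread or the differences of Hbegf was not tested. The mesothelial and macrophage sums given above were also higher in BEC, and their part in its level was not tested.

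**Figure D3:**
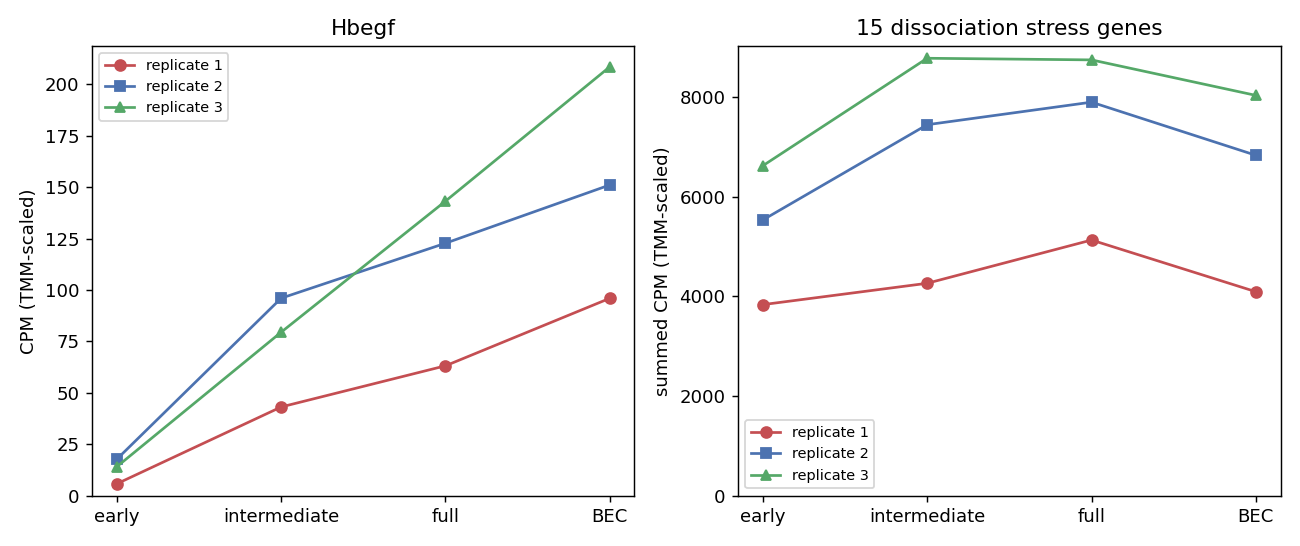
Hbegf (left) and the summed level of 15 dissociation stress genes (right) in CPM, by group, with a line for each replicate number. Replicate 1 is the lowest in every group in both panels, and Hbegf is higher in BEC than in early for each replicate number, as is the dissociation sum.

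Areg, which encodes amphiregulin, a low-affinity ligand of EGFR, went the other way from Hbegf. It had 4.11, 5.64 and 2.99 CPM in early (52, 62 and 37 counts) and 1.45, 0.658 and 0.849 CPM in intermediate (23, 12 and 15 counts). Full libraries held 3, 1 and 0 counts, at or below the floor of 3 counts. BEC libraries held 7, 11 and 5 counts, or 0.337, 0.513 and 0.228 CPM. The groups did not overlap, and full had the lowest level. Areg fell by 2.11 on the log2 scale from early to intermediate (SE 0.46, edgeR adjusted p = 0.00142), and was called lower in full than in intermediate (adjusted p = 0.000432) and than in early (adjusted p = 1.18e-06). With so few counts in full, the ratio is better read from pooled counts: early exceeded full by 72.1 times (95% interval 27.6 to 268) and intermediate exceeded full by 16.6 times (6.09 to 63.3). These intervals cover counting error only. The rise from full to BEC was called (adjusted p = 0.03), with full at 0.162 times BEC (0.0407 to 0.474) in pooled counts. It was lost without full replicate 2 or 3 or BEC replicate 1 or 2 (log2 1.96 to 2.54, adjusted p = 0.0592 to 0.117). Areg was lower in BEC than in intermediate by 1.43 (adjusted p = 0.035), and that call was lost with total-count scaling (−1.23, adjusted p = 0.0653) and without intermediate replicate 1 or 3 or BEC replicate 1 or 3 (−1.06 to −1.52, adjusted p = 0.0505 to 0.148).

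Tgfa, an EGFR ligand that hepatocytes make during regeneration, was among the most even members. It had 102, 111 and 89.2 CPM in early, 97.3, 113 and 91.8 in intermediate, 80.6, 97.9 and 82.2 in full, and 87.7, 95.9 and 88.8 in BEC. All groups overlapped and none of the 6 comparisons was called by edgeR with all 12 libraries, TMM factors and no block. The log2 change was −0.00 from early to intermediate (interval −0.24 to 0.24), −0.21 from intermediate to full (−0.45 to 0.03) and 0.06 from full to BEC (−0.17 to 0.30), so changes over 0.45 on the log2 scale at a single step lie outside these intervals. With the replicate block, Tgfa was called lower in full than in intermediate (−0.21, adjusted p = 0.0352). Full against early was −0.21 (edgeR adjusted p = 0.0984) and was called without early replicate 3 (−0.29, adjusted p = 0.0399) or full replicate 2 (−0.30, adjusted p = 0.0383). With total-count scaling it was called higher than in early in intermediate (0.67, adjusted p = 0.000147), full (0.65, adjusted p = 0.000116) and BEC (0.72, adjusted p = 4.81e-05), where the median gene was 0.72, 1.0 and 1.0 higher.

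Btc, a ligand of EGFR and ErbB4, had 30.1, 20.1 and 18.9 CPM in early, 24.8, 17.6 and 16.8 in intermediate, 29.8, 26.6 and 28.5 in full, and 34.4, 28.8 and 28.4 in BEC. The intermediate libraries lay below all full and BEC libraries, and early overlapped every other group. Btc rose from intermediate to full by 0.52 on the log2 scale (SE 0.18, edgeR adjusted p = 0.0324), a 1.44-fold difference. It was no longer called without intermediate replicate 2 or 3 or any 1 of the 3 full libraries (0.41 to 0.57, adjusted p = 0.0535 to 0.132). BEC was 0.63 higher than intermediate (adjusted p = 0.00912), kept in all 12 fits that left out 1 library. From early to intermediate the change was −0.23 (adjusted p = 0.322), and with total-count scaling 0.44 in the opposite direction (adjusted p = 0.0434). Areg and Btc, next to each other on chromosome 5, thus had opposite signs from intermediate to full.

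Egf, the ligand the family is named for, had low counts. It lay between 0.624 and 3.13 CPM in the 12 libraries (9 to 65 counts), with the highest value in BEC replicate 1, and the groups overlapped. No comparison was called by edgeR with all 12 libraries and TMM factors, and the interval for BEC against early ran from −0.10 to 1.98 on the log2 scale (adjusted p = 0.095). That comparison was called without BEC replicate 2 (log2 1.20, adjusted p = 0.0484) and with total-count scaling (1.80, adjusted p = 0.00319), on which scale the median gene was 1.0 higher. Ereg, which encodes epiregulin, had 0 to 8 counts per library and was not tested. Pooled counts of Ereg were 6 in early, 3 in intermediate, 1 in full and 10 in BEC, 8 of these last in replicate 3.

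Per kilobase of exon, Tgfa made up 57.9% ± 0.793 of the summed ligand level in early and 43.6% ± 4.59 in intermediate libraries, against 32.3% ± 6.19 in full and 27.3% ± 5.52 in BEC libraries (SD, n = 3 each). Hbegf made up 9.69% ± 4.57, 41.1% ± 10.4, 52.0% ± 10.5 and 58.2% ± 10.1 in the same order. Areg made up 12.8% ± 2.47 in early and 0.135% ± 0.169 in full, or 2.95% and 0.0302% without division by length. Btc lay between 12.6% and 19.1% in the group means, and Egf and Ereg below 0.4% in each. Tgfa was the highest ligand in every early library and Hbegf in every BEC library, whereas in intermediate their shares did not differ beyond the spread. Without division by length, Tgfa lay above Hbegf in every intermediate library (lowest Tgfa share 48.2%, highest Hbegf share 42.0%). In the edgeR fit of all 12 libraries with TMM factors and no block, the Tgfa level itself was called in none of the 6 comparisons.

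By step, 5 of the 9 tested members were called between intermediate and early, against 54.4% of all tested genes. Of these, Erbb2 and Hbegf were higher (28.7% of all genes were called higher), and Egfr, Erbb4 and Areg were lower (25.7% of all genes). Between full and intermediate 4 were called, against 40.7% of all genes: Erbb2, Erbb4 and Btc higher (20.8% of all genes) and Areg lower (19.8%). Between BEC and full 3 were called, against 21.3% of all genes, and these, Erbb2, Erbb4 and Areg, were all higher (10.7% of all genes were called higher and 10.6% lower). With the replicate block that last count was 5, against 25.3% of all genes, with Erbb3 and Hbegf added and the same 3 members kept. The block also moved the count from 5 to 6 between intermediate and early (57.2% of all genes), adding Erbb3. Between full and intermediate it moved the count from 4 to 6 (45% of all genes), adding Hbegf and Tgfa. Between full and early 6 members were called, 3 higher and 3 lower, against 71.2% of all genes (39.1% higher and 32.1% lower). Between BEC and early 5 were called, 3 higher and 2 lower, against 73.1% (40.0% higher and 33.0% lower). Between BEC and intermediate 5 were called, 4 higher and 1 lower, against 52.4% (26.3% higher and 26.2% lower). Leaving out 1 library moved this last count between 3 and 6. The comparisons share groups, so their counts are not independent.

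**Figure D4:**
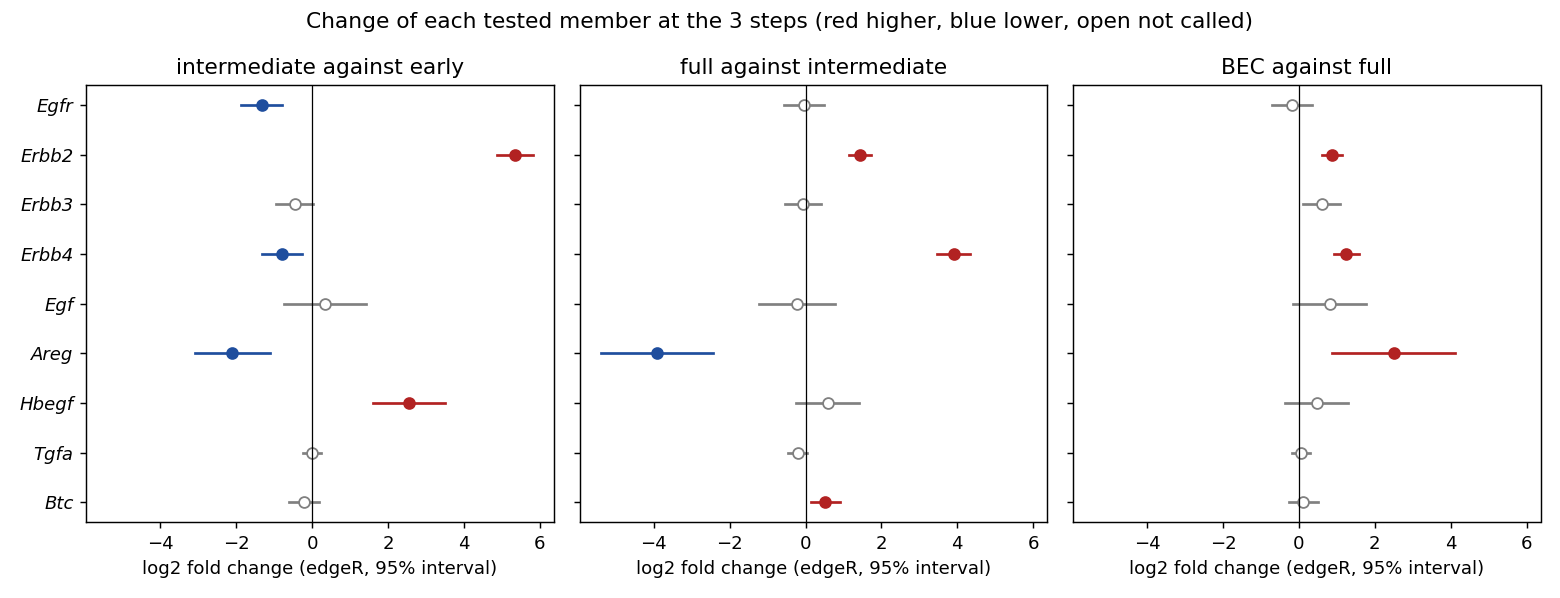
Log2 fold change of the 9 tested members at each of 3 steps (horizontal axis, edgeR, bars are 95% intervals), with red for called higher, blue for called lower and open grey for not called. Erbb2 is right of 0 in all 3 panels, Erbb4 and Areg change sides, and the Erbb3, Tgfa and Egf intervals reach or nearly reach 0; with total-count scaling Erbb3, Btc and Tgfa in the first panel and Egfr and Erbb3 in the second lie right of 0.

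The genes most like each member over the 12 libraries, among 9964 genes with at least 10 CPM on average, were found by Pearson r of log2 CPM. For Erbb2 they were Ptprs, ccdc198 and Clstn1, each with r = 0.998. Erbb4 was most like Crybg1, Kcnk1 and Wnt7b (r = 0.987, 0.986 and 0.985), and Hbegf most like Thbs1, Tra2a and Arid4a (0.990, 0.988 and 0.986). For Areg they were Mrpl32, Lgals3 and Rpap2 (0.983, 0.979 and 0.973), for Egfr Ccny, Elovl6 and Ern1 (0.956, 0.955 and 0.948), and for Btc Mcu, Zfp809 and Lrp5 (0.951, 0.919 and 0.912). Stat3 and Glul were among those of Erbb3 (0.926 and 0.919). For Egf and Tgfa the highest r was 0.857 (Rab11b) and 0.841 (Alg12). Among the members, Erbb2 and Hbegf had r = 0.948, Egfr and Hbegf −0.865, and Egfr and Erbb2 −0.859. All of these are descriptions over 12 libraries that fall into 4 groups, and differences between the groups enter every r.

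The rest of the pathway was read from 5 lists chosen by function. Their counts are to be read against the 54.4%, 40.7% and 21.3% of all tested genes called at the 3 steps. Of the other ErbB ligands, Nrg1, Nrg2 and Nrg4 could be tested, Epgn had at most 4 counts per library and Nrg3 none. Nrg1, which encodes a neuregulin that binds ErbB3 and ErbB4, had 31.9 ± 4.62 CPM in early and 64.1 ± 3.36 in intermediate libraries, against 39.9 ± 9.49 in full and 8.28 ± 3.00 in BEC libraries (SD, n = 3 each). Nrg1 rose from early to intermediate (log2 1.01, SE 0.22, edgeR adjusted p = 0.00148). It fell by 0.68 from intermediate to full, a call lost with total-count scaling (−0.48, adjusted p = 0.0823) and without intermediate replicate 3 or full replicate 1 or 2 (−0.57 to −0.65, adjusted p = 0.0587 to 0.0844). From full to BEC it fell by 2.27 (SE 0.23, adjusted p = 1.08e-05). Nrg4, a ligand of ErbB4, had 37.5 ± 8.15, 36.6 ± 5.81, 19.0 ± 0.996 and 5.66 ± 1.63 CPM and fell at the last 2 steps. The transcripts of the neuregulins Nrg1 and Nrg4 were thus lowest in BEC, where the transcript of their receptor Erbb4 was highest.

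Among 9 genes of ligand shedding, the metalloproteases and their regulators, 6 were called higher and 1 lower between intermediate and early, 5 higher at the next step and 2 higher from full to BEC. The list's median log2 change was 0.78, 0.39 and 0.16 at the 3 steps, beside 0.06, 0.01 and 0.00 over all genes. Adam10 went from 76.9 ± 7.12 to 144 ± 11.7 CPM from early to intermediate (log2 0.90, SE 0.11, edgeR adjusted p = 1.01e-05). Adam8 had 0.649, 1.73, 9.95 and 61.0 CPM from early to BEC and rose at the last 2 steps. With total-count scaling Adam8 was called higher at the first step too (log2 2.08, edgeR adjusted p = 0.000987), where the median gene was 0.72 higher. Timp3, an inhibitor of these proteases, had 7.46, 31.8, 86.4 and 147 CPM and rose at the first 2 steps. Adam17, the main protease for Hbegf, Areg and Tgfa, rose by 0.34 from full to BEC (adjusted p = 0.0195), a call lost without full replicate 1 or 2 or any 1 BEC library (0.26 to 0.35, adjusted p = 0.051 to 0.0984) and with no filter on low counts (0.31, adjusted p = 0.101). Adam9 was called lower in intermediate (−0.44), and with total-count scaling called higher (0.23, adjusted p = 0.0476).

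Of 12 receptor inhibitors, 5 were called higher and 3 lower between intermediate and early, 2 and 3 at the next step, and 1 and 1 from full to BEC, with medians of 0.20, 0.09 and 0.01. Errfi1, a feedback inhibitor of EGFR, had 1902 ± 221, 835 ± 214, 510 ± 119 and 345 ± 94.1 CPM. It was called lower in intermediate than in early (log2 −1.19, SE 0.23, edgeR adjusted p = 0.000686), which was lost with total-count scaling (−0.53, adjusted p = 0.0564). Its call at the next step (−0.71) was lost with total-count scaling (−0.51, adjusted p = 0.0921) and without intermediate replicate 2 or 3 or full replicate 1 or 2 (−0.54 to −0.74, adjusted p = 0.0559 to 0.108). Lrig3 had 16.6, 8.92, 0.930 and 0.268 CPM and fell by 3.25 from intermediate to full (SE 0.43, adjusted p = 4.35e-05), while its call at the first step was lost with total-count scaling and in 6 of 12 fits without 1 library (−0.79 to −0.96, adjusted p = 0.0593 to 0.133), those without any 1 early library, intermediate replicate 1 or 2, or BEC replicate 3. Socs5 and Rnf41 rose at the first step, and Cbl, a ubiquitin ligase that marks activated EGFR for degradation, had 30.9, 54.2, 83.9 and 106 CPM from early to BEC. Ptprj rose at the last 2 steps (log2 0.54 and 0.47). Cblb was called lower from full to BEC (−0.40), but not in 7 of 12 fits without 1 library (−0.32 to −0.45, adjusted p = 0.0501 to 0.153), those without intermediate replicate 2 or 3, full replicate 2 or 3, or any 1 BEC library.

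Of 25 genes that relay the signal, 8 were called higher and 6 lower between intermediate and early, 2 and 5 at the next step, and 0 and 3 from full to BEC, with medians of 0.08, −0.05 and −0.02. The 14 of 25 called at the first step are near the 54.4% of all genes. The adaptor genes Gab1 and Gab2 rose at the first step, from 29.7 ± 4.59 to 52.6 ± 3.08 CPM and from 3.27 ± 0.698 to 11.6 ± 1.65 CPM. Both were called again at the next step, Gab2 not without intermediate replicate 3 or full replicate 1 (0.49 and 0.45, adjusted p = 0.0704 and 0.0804). Hras and Map2k2 were called lower at the first step (−0.79 and −0.76), and neither was called with total-count scaling (−0.12 and −0.10). Plcg1 and Stat5b fell from full to BEC by 0.67 and 0.60 on the log2 scale.

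Genes of MAP kinase feedback and output had the widest range of changes of the 5 lists at the first step. Of 18, 10 were called higher and 2 lower between intermediate and early, 6 and 2 at the next step, and 2 and 4 from full to BEC, with medians of 0.93, 0.37 and −0.35. Etv4, a transcription factor gene induced by MAP kinase signalling, had 0.552 ± 0.0964 CPM in early, 38.5 ± 16.4 in intermediate, 39.0 ± 10.9 in full and 9.40 ± 0.742 in BEC. It rose by 6.10 on the log2 scale at the first step (SE 0.40, edgeR adjusted p = 3.79e-08) and fell by 2.05 at the last (SE 0.26, adjusted p = 6.74e-05). Spred3, a feedback inhibitor, was 0.458 ± 0.426 CPM in early, at or near the floor, and 9.0 ± 5.77 in intermediate (adjusted p = 2.31e-05). Spry2, another, had 0.0809 ± 0.140 CPM in early, at or below the floor, and 3.29 ± 2.04 in intermediate. It rose further to 16.1 ± 0.826 CPM in full. Ccnd1, which encodes cyclin D1, had 151, 74.4, 234 and 392 CPM and fell at the first step and rose at the other two. Dusp4 fell from 109 ± 10.8 to 63.5 ± 5.64 CPM between intermediate and full, and Phlda1 from 63.3 ± 25.2 to 24.0 ± 5.42 CPM between early and intermediate. Epha4 rose 2.52 on the log2 scale from full to BEC (SE 0.34). The call of Myc from intermediate to full (−0.77) was lost with total-count scaling (−0.56, adjusted p = 0.102), with only the 6 libraries compared (−0.76, adjusted p = 0.0692), and without intermediate replicate 2 or 3 or full replicate 1 or 2 (−0.50 to −0.82, adjusted p = 0.0608 to 0.183). That of Spry4 from full to BEC (−1.24) was lost without full replicate 1 or BEC replicate 1 (−1.14 and −1.04, adjusted p = 0.0581 and 0.0743). With total-count scaling the first step gave 3, 9, 10, 19 and 12 genes higher and 0, 0, 0, 0 and 2 lower in the 5 lists in the order given here, and the next step gave 0, 8, 4, 7 and 9 higher and 1, 0, 1, 3 and 1 lower. On that scale 69.4% of all tested genes were called at the first step and 44.5% at the next. Of these calls, 85.6% and 72.6% were higher.

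**Figure D5:**
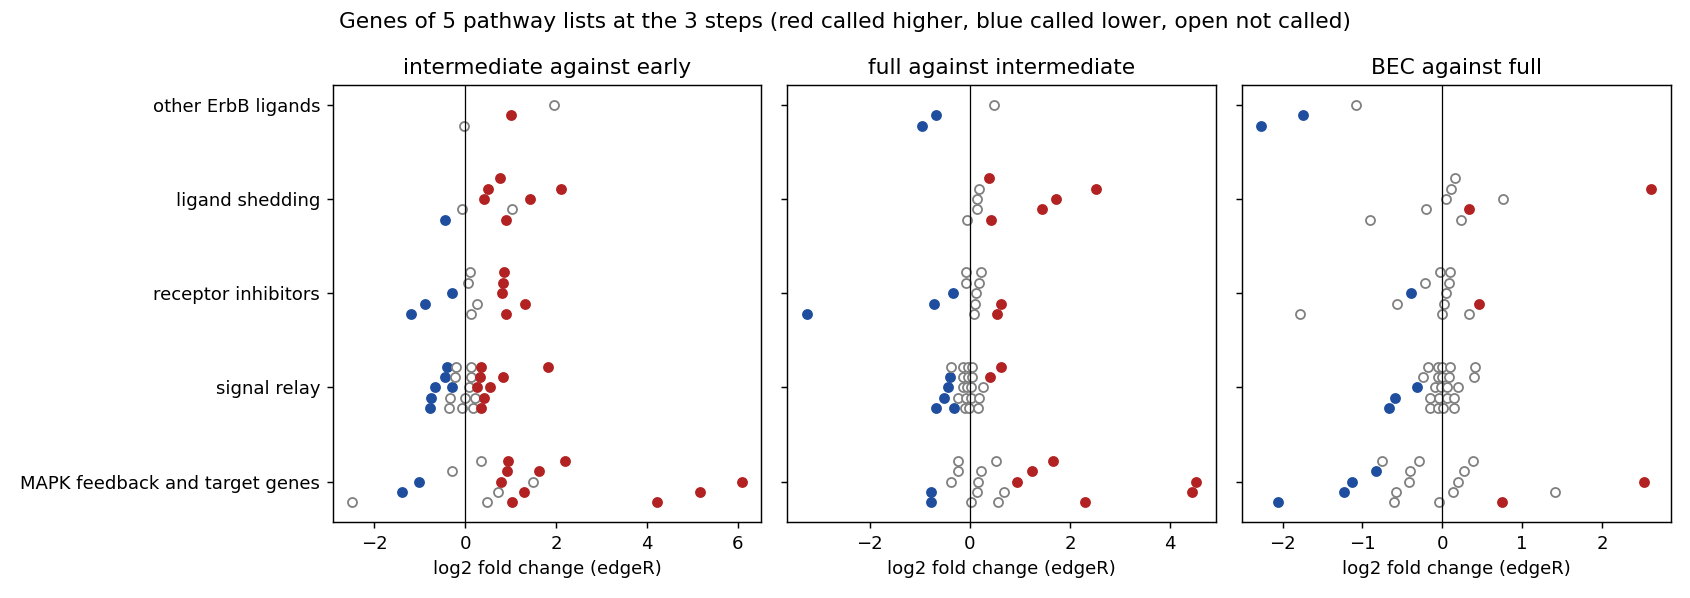
Log2 fold change (horizontal axis, edgeR) of each tested gene of 5 pathway lists at 3 steps, with red for called higher, blue for called lower and open grey for not called. The list of MAP kinase feedback and target genes spreads furthest in the first panel, up to 6.10 for Etv4, and most signal relay genes lie near 0, with Gab2 at 1.82 in that panel; with total-count scaling the first panel shifts right by about the change of the median gene.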

How the data were processed

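RNA of sorted mouse liver cells was isolated with a Nucleospin kit, and Novogene prepared the libraries, per the labels. The deposited count table gives unnormalized reads for each gene symbol. The submitters' processing notes name STAR 2.7.10b, featureCounts 2.0.1, DESeq2 and the build GRCm39. Annotation, strandedness and the counting of multi-gene reads are not given in the sources used here. Reads in bases shared with a gene on the opposite strand therefore cannot be told apart from those of the member. Mien1 shares 9 bases with Erbb2 and had 1732 counts over all libraries, against 13946 of Erbb2. Gm43917 shares 118 bases with Tgfa and had 89 counts, against 20638 of Tgfa. A second deposited table holds signal, the counts divided by 1 size factor per library, and was used only to check those factors. Groups came from the sample titles. In the count table, 0 rows lacked a gene name and 0 columns lacked a sample.

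Genes were kept by filterByExpr (16210 of 53599, over 99% of the counts in each library). All 12 libraries entered 1 edgeR fit (edgeR 4.0.16, R 4.3.3) with a term per group, TMM factors and quasi-likelihood tests, and a gene was called where its p, adjusted by Benjamini and Hochberg over these genes, was under 0.05. CPM uses the TMM-scaled library size. The floor of 3 counts is 0.128 to 0.273 CPM. Intervals are 95%, and those on pooled counts are exact binomial intervals. Since PCR copies reads, floors and those intervals cover counting error only. The common biological coefficient of variation was 14.8%. Lengths come from GENCODE M21 and sequences from RefSeq, both GRCm38, since no GRCm39 genome was used here.

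The members, the lists and the rule for named genes were chosen with earlier results of these data known. All 10 members are named. In each pathway list and step the rule names up to 2 called genes of largest change in each direction where the group with more has at least 5 CPM. For each member, the rule names the 3 genes of highest r, and 1 gene it chose is not reported here. Alternatives were DESeq2 1.42.0, median-of-ratios factors, total counts, no filter, a mean of at least 50 counts, only the 6 libraries compared, a replicate block, leaving out each library, and shares without length. Same-numbered libraries deviated together from their group means (r across genes 0.121 to 0.293 for intermediate and early, 0.137 to 0.322 for full and intermediate, 0.170 to 0.257 for BEC and full), so the numbers, which come from the titles, pair the libraries there. In the remaining 3 comparisons at least 1 pair had r under 0.1, though every r was above 0. The r ran from 0.0960 to 0.209 for full and early, 0.0442 to 0.145 for BEC and early, and 0.0839 to 0.175 for BEC and intermediate. Libraries of unlike number were not compared, so whether the numbers pair these groups was not settled. Replicates differed beyond counting error (chi-square per degree of freedom 5.34 to 58.2). On simulated counts for intermediate against early, 100% of 200 genes given a log2 change of 2 were recovered among 15630 genes tested, with 2.44% of 205 calls false. These 200 genes were split evenly between higher and lower, with the same dispersion for every gene and no shift in scaling. The simulation therefore does not test the scaling of early libraries or a spread that differs between genes.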

Additional observations from a re-analysis of the deposited data

How the results depend on the processing

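Over the 9 tested members and 6 comparisons, the alternatives other than left-out libraries gave 323 values on the same side of 0 and of the threshold, 26 that became calls, 6 that ceased to be and 10 that changed sign. Total counts moved the share of calls that were higher from 52.8% to 85.6% for intermediate against early, from 51.2% to 72.6% for full against intermediate, from 54.9% to 81.8% for full against early, from 54.8% to 80.3% for BEC against early and from 50.1% to 66.5% for BEC against intermediate. On that scale these changed sign: for intermediate against early Btc (0.44), Tgfa (0.67), Erbb3 (0.20) and Adam9 (0.23), for full against intermediate Erbb3 (0.13) and Egfr (0.16), for full against early Tgfa (0.65) and Erbb3 (0.34), for BEC against early Tgfa (0.72), and for BEC against intermediate Tgfa (0.053). Without a filter Tgfa was 0.041 for intermediate against early. Members called for BEC against early became 9 with total counts, where 82% of all tested genes were called against 73.1% with TMM factors. For BEC against full the block gave 5 members called. In that comparison the genes called over all lists were 24 with only the 6 libraries and 25 with the block against 15. Of all tested genes, 26.3%, 25.3% and 21.3% were called in the same order. The causes of these changes were not tested.

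The replicate block also called members in comparisons where at least 1 same-numbered pair had r under 0.1. For full against early these were Btc (edgeR adjusted p = 0.0255) and Tgfa (0.021). For BEC against early it was Btc (0.00529), and for BEC against intermediate Erbb3 (0.0102). Btc for BEC against early was called with no filter (0.0188), a mean of at least 50 counts (0.0462) and total counts (1.54e-05) too. It was also called without early replicate 1 (0.00317) or intermediate replicate 1 (0.0316). Btc for full against early was called with total counts (3.8e-05) and without early replicate 1 (0.0101). The block ended no call of a member and, beside these and the calls given with the results, changed none.

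Leaving out 1 library gave 589 member values on the same side, 13 new calls, 26 lost calls and 20 changes of sign, and 3 to 6 members called for BEC against intermediate. Values that passed through 0 ranged from −0.42 to 0.019 for Btc and from −0.094 to 0.070 for Tgfa (intermediate against early), from −0.41 to 0.41 for Egf (full against early), and from −0.11 to 0.40 for Erbb3 (BEC against early). For full against intermediate they ranged from −0.76 to 0.061 for Egf, from −0.17 to 0.051 for Egfr and from −0.25 to 0.18 for Erbb3.

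Without division by exon length, the receptor shares from early to BEC were 60.8%, 43.4%, 35.0% and 21.7% for Egfr and 38.5%, 46.4%, 37.5% and 40.2% for Erbb3. Erbb2 had 9.70%, 21.2% and 27.5% and Erbb4 0.513%, 6.29% and 10.5% from intermediate on. Ligand shares were 71.1%, 51.9%, 39.2% and 33.7% for Tgfa and 8.85%, 36.5%, 47.2% and 53.8% for Hbegf. Areg had 2.95% in early, 0.532% in intermediate and 0.136% in BEC. Depth limits Ereg, Areg in full and Erbb2 in early, with 0 to 11 counts per library, and Egf, with 9 to 65.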
